A study of Mus musculus with 8 samples.

Results

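The genes described here encode enzymes that build triglyceride in mouse embryonic stem cells (ESCs). They are 8 of the 55401 genes in the count files: the 3 lipins *Lpin1*, *Lpin2* and *Lpin3*, and the 5 acyltransferases *Gpam*, *Agpat1*, *Agpat2*, *Dgat1* and *Dgat2*. They were taken by symbol, and *Lpin1* was chosen by its measured RNA level, which was higher than in the controls after both depletions. The values of *Lpin1* against control are therefore a description here and carry no test, whereas the other 7 genes and the comparison of both depletions with each other were tested.

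Total RNA was sequenced from 2 libraries labelled Control, 3 labelled Zzz3_auxin and 3 labelled Yeats2_auxin. The auxin cells expressed Tir1, an F-box protein that marks degron proteins for destruction when auxin is present, and carried ZZZ3 or YEATS2 fused to the auxin-inducible degron (AID). ZZZ3 and YEATS2 are subunits of the ATAC complex, a coactivator with histone acetyltransferase activity. Auxin was given at 500 µM for 24 h, and all cells grew with LIF and 2 inhibitors, CHIR99021 and PD0325901, in 15% serum. The medium of all cells, controls included, also held G418 at 400 µg/ml, which the study used to select for Tir1. The labels state neither the line nor the treatment of the controls. Legends in the supplement of the study describe its estimates for ZZZ3 and YEATS2 as a contrast of DMSO and auxin in AID cells, but do not tie the 2 Control libraries to a line. With the labels alone, depletion, exposure to auxin and any difference of line cannot be told apart in a comparison with control. They also do not say whether replicates were separate cultures. P values set the difference of group means against the spread between libraries, estimated over the 3 groups, which may be technical. Within groups, the chi-square per gene, lower for more similar libraries, was lowest between Yeats2_auxin replicates 1 and 3, at 3.69. It was 24.7 between Yeats2_auxin replicates 2 and 3 and 23.2 between the controls. Correlations of log2 levels for these pairs differed less, at 0.993, 0.990 and 0.987. Whether Yeats2_auxin replicates 1 and 3 came from separate cultures was not tested, so n = 3 counts libraries there.

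Triglyceride is made by adding fatty acids one after another to glycerol 3-phosphate. GPAM, an enzyme of the outer mitochondrial membrane, adds the first fatty acid, and AGPAT1 and AGPAT2 add the next one to give phosphatidate. Lipins are phosphatidate phosphatases that turn phosphatidate into diacylglycerol, and DGAT1 and DGAT2 add the last fatty acid. Diacylglycerol and phosphatidate also feed the synthesis of membrane phospholipids. LPIN1 is known for its role in fat and muscle, where its loss causes lipodystrophy in mice, and it can also enter the nucleus and act on transcription.

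The lipins share a catalytic motif of the form DxDxT. The coding stretch around it is shown for each lipin because reads are told apart between the 3 genes by sequence alone. The sequences come from GENCODE M21 transcripts on GRCm38, the same assembly as mm10, and are written 5′ to 3′ on the coding strand with the 5 motif codons in capitals. Each stretch of 75 bases crosses 1 exon junction.
*Lpin1* (chr12:16546786-16547538, minus strand, exons 16 and 17 of 21): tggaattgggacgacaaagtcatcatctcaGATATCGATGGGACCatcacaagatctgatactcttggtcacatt
*Lpin2* (chr17:71243384-71243946, plus strand, exons 15 and 16 of 20): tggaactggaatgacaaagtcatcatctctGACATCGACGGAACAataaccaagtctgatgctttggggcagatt
*Lpin3* (chr2:160903699-160903945, plus strand, exons 15 and 16 of 20): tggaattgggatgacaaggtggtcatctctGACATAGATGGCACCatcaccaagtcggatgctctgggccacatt

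Of these 75 bases, 58 were identical between *Lpin1* and *Lpin2*, 60 between *Lpin1* and *Lpin3* and 61 between *Lpin2* and *Lpin3*. Over the whole coding sequences, the aligned identity was 65.4%, 66.2% and 65.3% for the same pairs. No run of 40 bases of *Lpin1* or *Lpin3* transcripts occurred in a transcript of another gene. In *Lpin2*, 17 of 12372 such runs did, and none of them was in another lipin. Among transcripts, exact runs of 40 bases from the lipins thus belonged to 1 gene, apart from 0.137% of those in *Lpin2*. Sequence outside transcripts and near matches were not searched, so how the reads were assigned was not tested.

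The libraries held from 14315120 to 27884704 reads in genes, and 17532 genes passed the filter on low counts, all 8 genes described here among them. Across these 8 genes and all libraries, 30 to 3446 reads were counted per gene. RNA of *Zzz3* was at 182 and 186 CPM (counts scaled to the size of the library) in the controls and at 77.5 to 112 CPM in Zzz3_auxin. RNA of *Yeats2* was at 90.9 and 95.8 CPM in the controls and at 43.7 to 103 CPM in Yeats2_auxin. A degron acts on the protein, so these values do not measure the depletion. The 8 ESC markers summed to between 4310 and 5095 CPM in every library. One of them, *Pou5f1*, was at 275 and 420 CPM in the controls and at 460 to 592 CPM in the auxin libraries, with a log2 FC of 0.62 for ZZZ3 and 0.55 for YEATS2 (adjusted P = 0.106 and 0.213). *Tbx3*, another of the 8, went the other way, with -0.34 and -0.10 (adjusted P = 0.266 and 0.823). The medians of the 8 were -0.11 and -0.03. edgeR and limma-voom called 0 of the 8 against control, and DESeq2 called 1 for ZZZ3. For ZZZ3 and YEATS2, the shares of all genes called were 0.753% and 0.445% by edgeR. They were 0.508% and 2.21% by limma-voom and 6.35% and 2.48% by DESeq2. The 5 adipocyte markers summed to at most 0.55 CPM in any library, with *Lep* and *Cfd* at 0 reads in all of them. The sums were 1.95 to 4.41 CPM for 5 markers of hepatocytes or visceral endoderm and 1.27 to 2.15 CPM for 5 markers of fibroblasts or feeders. *Apob*, of the former list, was at 1.59 to 4.03 CPM, with a log2 FC of 0.49 and -0.21 (adjusted P = 0.409 and 0.800). Libraries also differed in how far GC-rich genes stood above GC-poor ones: the median log2 difference was -0.59 in Control replicate 1, 0.43 in Zzz3_auxin replicate 3 and between -0.08 and 0.15 in the other libraries.

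*Lpin1* (chr12:16535669-16610966, minus strand) had a higher RNA level in the auxin cells than in the controls. It was at 57.3 and 61.1 CPM in the controls, at 132, 124 and 134 CPM in Zzz3_auxin and at 123, 106 and 121 CPM in Yeats2_auxin. Every auxin library lay above both controls, with the lowest auxin value in Yeats2_auxin replicate 2. The log2 fold change (FC) was 1.14 ± 0.12 (SE, n = 3 against 2) after ZZZ3 depletion, a 2.20-fold higher level, and 0.98 ± 0.12 (SE, n = 3 against 2) after YEATS2 depletion, a 1.97-fold higher level. The log2 FC lay between 1.07 and 1.19 for ZZZ3 and between 0.93 and 1.04 for YEATS2 over 17 ways of fitting the counts. It was 1.09 for ZZZ3 and 0.93 for YEATS2 without Control replicate 1, and 1.19 and 1.03 without Control replicate 2.

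*Lpin1* is strongly expressed in muscle, and the summed level of 5 striated muscle markers was also higher in the auxin libraries. It came to 3.40 and 6.26 CPM in the controls, from 8.17 to 9.97 CPM in Zzz3_auxin and from 7.85 to 9.46 CPM in Yeats2_auxin. *Des*, which encodes the intermediate filament protein desmin, made up most of the sum, at 2.71 and 4.54 CPM in the controls and at 4.91 to 8.30 CPM in the auxin libraries. Its lowest value was in Control replicate 1 and its highest in Zzz3_auxin replicate 3, the ends of the tilt to GC-rich genes. *Acta1*, skeletal muscle actin, went the other way in Yeats2_auxin, with a mean of 0.118 CPM against 0.229 CPM in the controls. *Myh6* had the largest log2 FC of the 5, at 2.07 and 1.51 (adjusted P = 0.125 and 0.349), from a mean of 0.25 CPM in the controls. Of the 4 markers tested, edgeR called 0 against control, beside 0.753% and 0.445% of all genes. At an unadjusted P under 0.05 were 2 for Zzz3_auxin and 1 for Yeats2_auxin, beside 21.7% and 14.6%. By limma-voom 0 were called, beside 0.508% and 2.21%, and by DESeq2 0 and 1, beside 6.35% and 2.48%. The part of these markers in the level of *Lpin1* was not tested. In bulk RNA, more cells that express a gene and more RNA per cell cannot be told apart.

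The direct comparison asks whether both depletions differ in *Lpin1*, and it was not used to pick the gene. The 3 Yeats2_auxin libraries all lay below the 3 Zzz3_auxin libraries. The log2 FC of Yeats2_auxin against Zzz3_auxin was -0.16 ± 0.10 (SE, n = 3 against 3), with a 95% interval from -0.38 to 0.06 and an adjusted P of 0.779. A difference was therefore not detected, and the interval still holds a level of 0.768 times that after ZZZ3 depletion. Libraries did not overlap in this direction for 2 of the 8 genes, *Lpin1* and *Gpam*, and for 5.82% of all genes tested.

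**Figure D1:**
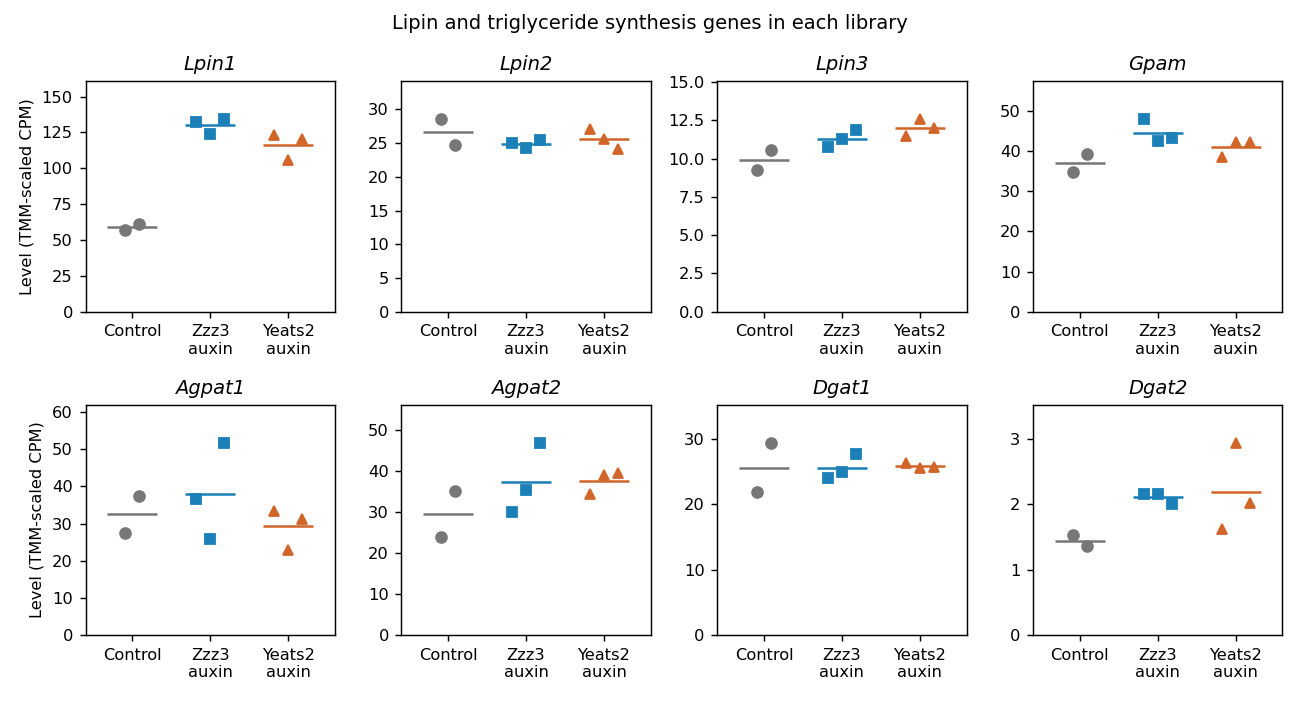
Level of each of the 8 genes (y axis, TMM-scaled CPM, from 0, with its own scale in each panel) in the 2 Control, 3 Zzz3_auxin and 3 Yeats2_auxin libraries (x axis). Points are libraries and lines are group means. *Lpin1* lies at 57.3 and 61.1 CPM in the controls and between 106 and 134 CPM in all 6 auxin libraries, while the groups of *Lpin2*, *Agpat1*, *Agpat2* and *Dgat1* overlap.

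The other lipins did not pass the test. *Lpin2* (chr17:71182560-71249817, plus strand) was at 28.5 and 24.7 CPM in the controls, at 25.1, 24.3 and 25.4 CPM in Zzz3_auxin and at 27.1, 25.6 and 24.1 CPM in Yeats2_auxin. The groups overlapped throughout. Its log2 FC was -0.09 (95% interval -0.39 to 0.20, adjusted P = 0.722) for ZZZ3 and -0.06 (95% interval -0.35 to 0.23, adjusted P = 0.874) for YEATS2, so that a rise over 1.18-fold lay outside both intervals.

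*Lpin3* (chr2:160880670-160906002, plus strand) was the least counted lipin. It was at 9.28 and 10.6 CPM in the controls, at 10.8, 11.3 and 11.8 CPM in Zzz3_auxin and at 11.5, 12.6 and 12.0 CPM in Yeats2_auxin. All 6 auxin libraries lay above both controls, by a small margin. The log2 FC was 0.19 (95% interval -0.16 to 0.53, adjusted P = 0.527) for ZZZ3 and 0.28 (95% interval -0.07 to 0.62, adjusted P = 0.443) for YEATS2. When the dependence of each library on the GC content and length of transcripts was removed, the value for ZZZ3 was -0.05. For YEATS2, the value lay between 0.10 and 0.38 over the 17 ways of fitting the counts.

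Levels can be set beside each other between genes only per length, here as reads scaled to library size and to kilobases of exon (RPKM). *Lpin1* was the main lipin in every library on this scale. It stood at 6.12 ± 0.28 RPKM (SD, n = 2) in the controls, 13.5 ± 0.56 RPKM (SD, n = 3) in Zzz3_auxin and 12.0 ± 0.98 RPKM (SD, n = 3) in Yeats2_auxin. *Lpin2* and *Lpin3* together gave 4.84 and 4.88 RPKM in the controls, 4.97 to 5.29 RPKM in Zzz3_auxin and 5.23 to 5.49 RPKM in Yeats2_auxin. The share of *Lpin1* in the summed lipin RPKM was 55.0% and 56.4% in the controls, 71.8% to 73.4% in Zzz3_auxin and 66.6% to 70.6% in Yeats2_auxin. These shares contain the rise for which *Lpin1* was picked, and RNA levels do not give the phosphatase activity of the proteins.

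**Figure D2:**
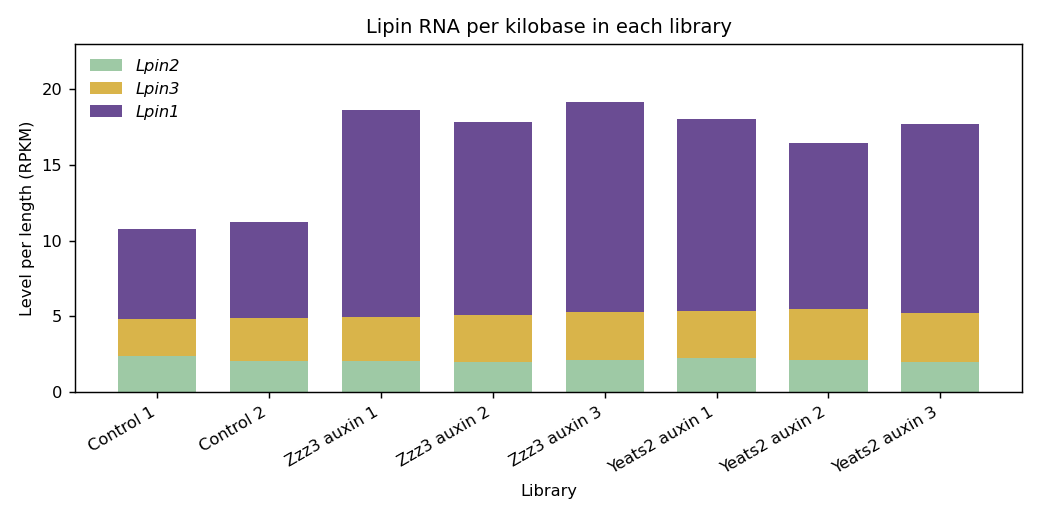
Level per length (y axis, RPKM, from 0) of the 3 lipins stacked for each of the 8 libraries (x axis). *Lpin2* and *Lpin3* together reach 4.84 to 5.49 RPKM in all libraries, and the whole stack reaches 10.8 and 11.2 RPKM in the controls and 16.4 to 19.1 RPKM in the auxin libraries, where the *Lpin1* segment is taller.

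Of the 7 genes other than *Lpin1*, 0 were called by edgeR at an adjusted P under 0.05 after ZZZ3 depletion, against 0.753% of all genes tested, and 0 after YEATS2 depletion, against 0.445%. DESeq2 also called 0 of them, against 6.35% and 2.48% of all genes, as did limma-voom, against 0.508% and 2.21%. In edgeR, 0 had an unadjusted P under 0.05, against 21.7% and 14.6% of all genes. The median log2 FC of the 7 genes was 0.22 for ZZZ3 and 0.15 for YEATS2, beside medians of 0.01 and -0.01 over all genes. All libraries lay above both controls for *Lpin3*, *Gpam* and *Dgat2* in Zzz3_auxin, as for 16.8% of all genes tested, and for *Lpin3* and *Dgat2* in Yeats2_auxin, as for 19.3%.

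*Gpam* (chr19:55067268-55127238, minus strand), the mitochondrial enzyme of the first step, was at 34.8 and 39.3 CPM in the controls, at 47.8, 42.4 and 43.3 CPM in Zzz3_auxin and at 38.6, 42.3 and 42.3 CPM in Yeats2_auxin. The Zzz3_auxin libraries lay above the controls, and 1 Yeats2_auxin library fell between them. Its log2 FC was 0.27 (95% interval -0.01 to 0.54, adjusted P = 0.252) for ZZZ3 and 0.15 (95% interval -0.13 to 0.42, adjusted P = 0.622) for YEATS2.

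AGPAT1 and AGPAT2 act in the next step. *Agpat1* (chr17:34604262-34613449, plus strand) was at 27.5 and 37.4 CPM in the controls, at 36.6, 25.9 and 51.5 CPM in Zzz3_auxin and at 33.4, 22.9 and 31.3 CPM in Yeats2_auxin. Its highest value was in Zzz3_auxin replicate 3, the library with the strongest tilt to GC-rich genes, and its transcript had 59% GC. The log2 FC was 0.22 (95% interval -0.36 to 0.80, adjusted P = 0.663) for ZZZ3 and -0.15 (95% interval -0.73 to 0.42, adjusted P = 0.819) for YEATS2. With the GC and length correction, the value for ZZZ3 turned to -0.18.

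*Agpat2* (chr2:26593057-26604417, minus strand), the isoform whose loss causes lipodystrophy, was at 24.0 and 35.2 CPM in the controls, at 29.9, 35.4 and 46.8 CPM in Zzz3_auxin and at 34.5, 39.1 and 39.5 CPM in Yeats2_auxin. Control replicate 1 was the lowest library and Zzz3_auxin replicate 3 the highest, the same pair that was lowest and highest in the tilt to GC-rich genes. Against control, the log2 FC was 0.33 (95% interval -0.12 to 0.78, adjusted P = 0.379) for ZZZ3 and 0.35 (95% interval -0.10 to 0.80, adjusted P = 0.454) for YEATS2. The same correction gave 0.01 and 0.15. *Agpat1* shares 101 exon bases with *Egfl8* and *Agpat2* 64 with *Egfl7*, both on the opposite strand, and the strand setting of the counting is not stated, so reads there may belong to either gene.

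Both enzymes of the last step were tested as well. *Dgat1* (chr15:76502015-76511953, minus strand) was at 21.8 and 29.3 CPM in the controls, at 24.1, 24.8 and 27.7 CPM in Zzz3_auxin and at 26.3, 25.5 and 25.7 CPM in Yeats2_auxin. All auxin values lay between those of the controls. Against control, its log2 FC was -0.00 (95% interval -0.34 to 0.33, adjusted P = 0.993) for ZZZ3 and 0.02 (95% interval -0.32 to 0.35, adjusted P = 0.973) for YEATS2.

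*Dgat2* (chr7:99153658-99182719, minus strand), which shares no sequence family with *Dgat1*, was weakly expressed. It was at 1.53 and 1.36 CPM in the controls, at 2.15, 2.16 and 2.01 CPM in Zzz3_auxin and at 1.62, 2.93 and 2.02 CPM in Yeats2_auxin, from 30 to 81 reads per library. All auxin libraries lay above both controls, the lowest of them by little. Estimates of the log2 FC were 0.55 (95% interval -0.11 to 1.21, adjusted P = 0.315) for ZZZ3 and 0.60 (95% interval -0.05 to 1.26, adjusted P = 0.370) for YEATS2, the widest intervals of the 8 genes, which reach past the log2 FC of *Lpin1*. With the GC and length correction, the estimates were 0.30 and 0.41.

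Between the depletions, edgeR called 0 of the 8 genes and 0 of all genes tested (0%). In this comparison 6.25% of all genes had an unadjusted P under 0.05, but 0 of the 8, and DESeq2 called 3 of all genes (0.0171%) and limma-voom 1 (0.0057%), and both called 0 of the 8. The log2 FC of Yeats2_auxin against Zzz3_auxin ranged from -0.37 for *Agpat1* to 0.09 for *Lpin3* among the 7 genes other than *Lpin1*.

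**Figure D3:**
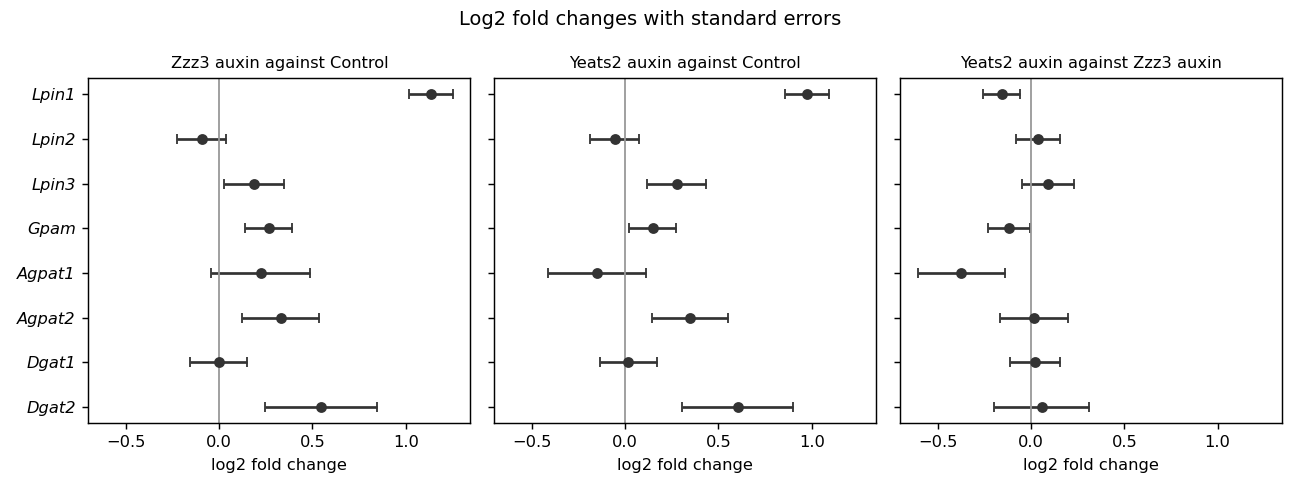
Log2 FC (x axis) of the 8 genes (y axis) in each of the 3 comparisons. Points are edgeR estimates and bars are 1 SE. *Lpin1* stands at 1.14 and 0.98 against control, the other 7 genes lie between -0.15 and 0.60 there, and all 8 lie between -0.37 and 0.09 in the direct comparison.

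The order of levels per length was led by *Agpat2* in all groups, at 13.9 ± 3.74 RPKM (SD, n = 2) in the controls. There it was followed by *Agpat1* at 10.8 RPKM, *Dgat1* at 8.36 RPKM, *Lpin1* at 6.12 RPKM, *Gpam* at 5.56 RPKM, *Lpin3* at 2.69 RPKM, *Lpin2* at 2.18 RPKM and *Dgat2* at 0.47 RPKM. *Agpat2*, *Agpat1* and *Dgat1* overlapped as neighbours in this order, and the others were apart. In both auxin groups *Lpin1* took rank 2, ahead of *Agpat1*, with which its libraries overlapped. The other 7 genes kept their order among themselves. *Gpam* is not the only enzyme of its step: *Gpat4*, the isoform of the endoplasmic reticulum, was at 88.8 CPM in the controls and was not called in either comparison with control (log2 FC -0.14 and -0.10, adjusted P = 0.522 and 0.752).

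Around the 8 genes, 104 further genes in 8 lists were examined, of which 93 passed the filter. edgeR called 0 of them in either comparison with control, beside 0.753% and 0.445% of all genes. At an unadjusted P under 0.05, 15 were higher and 9 lower after ZZZ3 depletion, 25.8% of those tested beside 21.7% of all genes. After YEATS2 depletion, 6 were higher and 4 lower, 10.8% beside 14.6% of all genes. DESeq2 called 8 and 3 of the 93, beside 6.35% and 2.48% of all genes, and limma-voom 0 and 2, beside 0.508% and 2.21%. The median log2 FC of the 93 genes was 0.04 and -0.00, beside 0.01 and -0.01 for all genes.

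*Gk*, glycerol kinase, which makes glycerol 3-phosphate from glycerol, came closest to the threshold. It was at 46.6 and 43.7 CPM in the controls, at 31.6, 28.1 and 29.6 CPM in Zzz3_auxin and at 29.8, 27.9 and 29.2 CPM in Yeats2_auxin. All auxin libraries lay below both controls, and the share of all genes for which this held was not counted. The log2 FC was -0.60 ± 0.12 (SE, adjusted P = 0.0505) for ZZZ3 and -0.64 ± 0.12 (SE, adjusted P = 0.0513) for YEATS2. DESeq2 called it in both comparisons (adjusted P = 0.00135 and 0.00069) and limma-voom for YEATS2 (adjusted P = 0.0138). The other gene named for the 5 genes of glycerol 3-phosphate supply, *Dhrs7b*, a reductase of ether lipid synthesis, had a log2 FC of 0.23 and 0.17.

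Among the 9 other acyltransferases of the pathway, 8 were tested and their median log2 FC was -0.16 for ZZZ3 and -0.09 for YEATS2. *Gpat2*, a relative of *Gpam* known from the germ line, was at 7.30 and 8.35 CPM in the controls and at 9.04 to 14.2 CPM in the auxin libraries. Its log2 FC was 0.66 in both comparisons (adjusted P = 0.120 and 0.193). *Lclat1*, which acts on lysocardiolipin, had a log2 FC of -0.13 and -0.35.

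The 6 lipid phosphate phosphatases and activators of lipins had medians of -0.14 and -0.22. CTDNEP1 with its partner CNEP1R1 removes phosphate from lipins, which activates them. *Ctdnep1* had a log2 FC of -0.17 and -0.17, and *Cnep1r1* of -0.58 and -0.28 (adjusted P = 0.159 and 0.579). *Plpp2*, a phosphatase of lipid phosphates that is not a lipin, had -0.57 and -0.33 (adjusted P = 0.172 and 0.508).

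The lists of the phospholipid branch and of diacylglycerol use and signalling gave medians near 0. For the 18 genes of the phospholipid branch they were -0.07 and -0.02. *Cds1*, which makes CDP-diacylglycerol from phosphatidate, had a log2 FC of 0.53 and -0.00, and *Etnk1*, an ethanolamine kinase, of -0.40 and -0.21. For the 9 tested genes of diacylglycerol use and signalling the medians were 0.05 and 0.09. *Dgkz*, a kinase that turns diacylglycerol back into phosphatidate, had 0.77 and 0.49 (adjusted P = 0.103 and 0.341), and *Daglb*, a diacylglycerol lipase, 0.37 and 0.28.

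The 14 tested genes of lipid droplets and lipolysis had medians of 0.21 and 0.23. *Lipe*, hormone-sensitive lipase, had a log2 FC of 0.60 and 0.44 (adjusted P = 0.139 and 0.357), and *Bscl2*, which encodes the droplet assembly protein seipin, of 0.52 and 0.32 (adjusted P = 0.0921 and 0.343). For the 17 genes of fatty acid synthesis and activation the medians were 0.04 and -0.14. *Fasn*, fatty acid synthase, had 0.77 and 0.39 (adjusted P = 0.100 and 0.446). It was at 284 and 455 CPM in the controls and at 451 to 736 CPM in Zzz3_auxin, so the groups overlapped. *Acsl5*, an acyl-CoA synthetase, had 0.76 and 0.34 (adjusted P = 0.140 and 0.581). It was at 9.77 and 8.75 CPM in the controls and at 22.5, 13.0 and 11.3 CPM in Zzz3_auxin.

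Of 20 regulators of lipid genes, 16 were tested, with medians of 0.23 and 0.04. *Scap*, which escorts SREBP proteins to the Golgi, was at 27.7 and 39.2 CPM in the controls and at 46.6 to 82.3 CPM in the auxin libraries. Its log2 FC was 0.93 and 0.63 (adjusted P = 0.0656 and 0.205). *Ppard*, a nuclear receptor for fatty acids, had 0.84 and 0.71 (adjusted P = 0.0912 and 0.205). *Scap* and *Ppard* were lowest in Control replicate 1 and highest in Zzz3_auxin replicate 3, the ends of the tilt to GC-rich genes. The same held for *Dgkz*, *Daglb*, *Lipe*, *Bscl2* and *Fasn*, and the part of the tilt in these values was not tested. *Srebf1*, which encodes an SREBP that is known to act on lipogenic genes and on *Lpin1*, had 0.74 and 0.19 (adjusted P = 0.198 and 0.800). Other genes of this list were lower. *Insig1* had -0.26 and -0.46 (adjusted P = 0.262 and 0.142), and *Insig2* -0.54 and -0.22 (adjusted P = 0.113 and 0.581). At an unadjusted P under 0.05, 6 of the 16 were higher and 2 lower for ZZZ3, beside 21.7% of all genes. For YEATS2, 3 were higher and 1 lower, beside 14.6%. *Ppargc1a*, a coactivator that LPIN1 binds in liver, had 1 read in 1 library and 0 in the others.

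**Figure D4:**
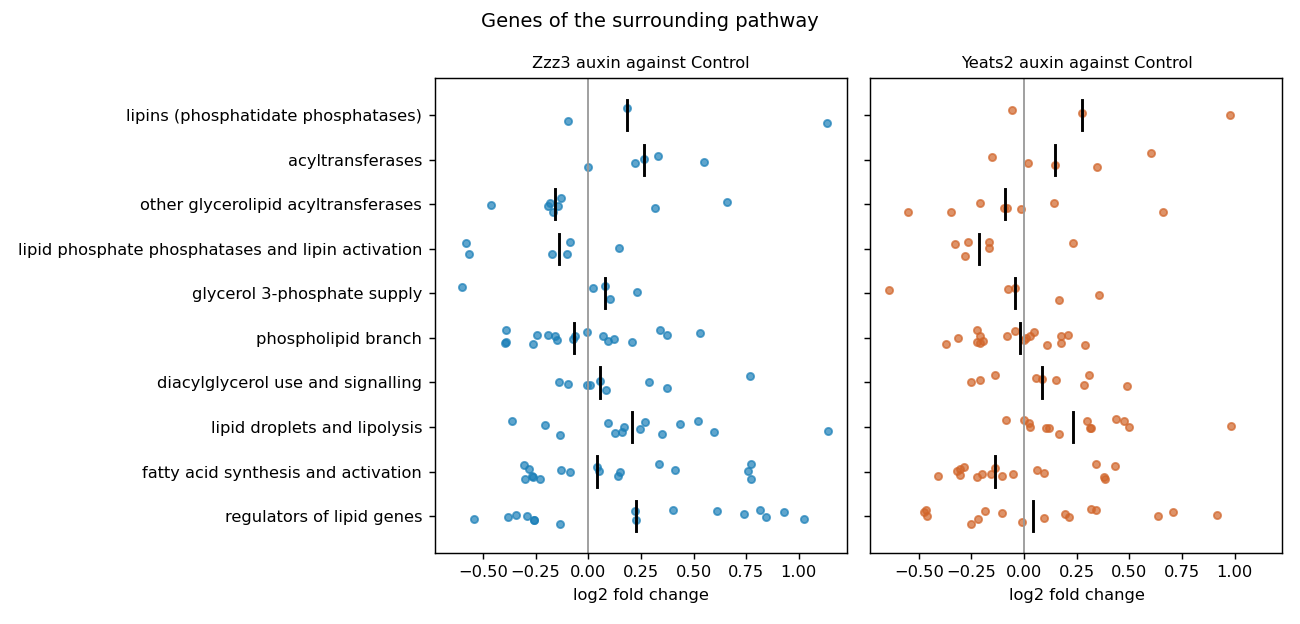
Log2 FC against control (x axis) of each tested gene in the lists of the pathway (y axis), for Zzz3_auxin on the left and Yeats2_auxin on the right. Points are genes, spread vertically for visibility, and black bars are list medians. The list medians lie between -0.22 and 0.28, and *Lpin1* is the lipin furthest to the right in both panels. *Plin5* of the lipid droplet list, with a mean of 0.79 CPM, lies as far right, at 1.14 and 0.98.

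The 5 genes whose log2 CPM followed *Lpin1* most closely over the 8 libraries, among 12301 genes, were *Map3k9* (Pearson r = 0.993), *Scfd2* (r = 0.982), *Vps11* (r = 0.980), *Tef* (r = 0.975) and *Plxna1* (r = 0.975). The libraries fall into controls and auxin cells, so r follows mainly the step between them. *Map3k9*, a kinase gene, was at 7.55 and 7.98 CPM in the controls, 13.7 to 15.8 CPM in Zzz3_auxin and 13.2 to 14.0 CPM in Yeats2_auxin. *Tef*, which encodes a PAR bZIP transcription factor, was at 34.2 and 37.1 CPM in the controls and at 45.2 to 50.7 CPM in the auxin libraries. *Plxna1*, a semaphorin receptor gene, was at 84.1 and 95.5 CPM in the controls and at 142 to 180 CPM in the auxin libraries. Among the other 7 genes of triglyceride synthesis, r with *Lpin1* ranged from -0.44 for *Lpin2* to 0.75 for *Gpam*.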

How the data were processed

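Counts were deposited for 8 libraries of total RNA, made by ribosomal RNA depletion from 200 ng RNA with 12 PCR cycles, although the label of the molecule names poly(A) RNA. According to the study's methods and the submitters' processing notes, the authors used cutadapt to trim, discarded ribosomal RNA reads, aligned the remainder to mm10 with STAR 2.5.3a and counted unique, unambiguous reads per gene with HTSeq 0.6.1p1. The strand option is not given in the sources used here, and the values were not normalized. The 5 tally lines of each file were left out, and reads in no gene made up 29.6% to 37.1% of unique reads. GENCODE M21 (GRCm38) gave symbols, positions and exon lengths for 55141 genes, and 260 had no match.

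The counts were fitted in R 4.3.3 with edgeR 4.0.16: filterByExpr, TMM scaling, a mean per group over all 8 libraries and the robust quasi-likelihood test, two-sided, with Benjamini-Hochberg adjustment over all genes tested in each of 3 comparisons and calls at an adjusted P under 0.05. SE is the size of the log2 FC divided by the square root of F, and 95% intervals use the degrees of freedom of that test. CPM and RPKM are TMM-scaled, RPKM over the union of exons. DESeq2 1.42.0, limma-voom (limma 3.58.1) and the fits listed in the closing section were alternatives. In simulated counts with 200 genes changed, a log2 FC of 1 was recovered for 71% of them in Zzz3_auxin against control (17186 genes) and 74% in Yeats2_auxin against control (17172 genes), and a log2 FC of 2 for 98.5% (17147 genes) and 98% (17188 genes). Tables were made in Python 3.11.15 with pandas 2.3.3.

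The genes, the lists around them and the tests were chosen with earlier results of these data known. All 8 genes are named, of each other list the genes called in either comparison with control or otherwise the 2 with the largest change at a mean of at least 2 CPM, and the 5 genes most correlated with *Lpin1*. *Gpat4*, *Ctdnep1*, *Srebf1*, *Insig1*, *Insig2*, *Ppargc1a*, *Plin5*, *Myh6*, *Acta1*, *Lep* and *Cfd* were named in addition, after their values were seen.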

Additional observations from a re-analysis of the deposited data

How the results depend on the processing

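The groups of 2 or 3 libraries limit every comparison. Over 8 alternatives that kept all libraries and 8 fits without 1 library each, the log2 FC of *Lpin1* kept its sign in all 3 comparisons, and 0 of the other 7 genes was called in any. Leaving out 1 library gave a log2 FC of *Lpin1* from 1.09 to 1.19 for ZZZ3 and from 0.93 to 1.04 for YEATS2, and with only the groups compared in the fit it was 1.15 for ZZZ3. The number of the 8 genes called, which can only be read for the 7 genes not picked for their rise, was 0 or 1 in every fit. The number of all genes called ranged without 1 library from 0 to 841 for ZZZ3 (132 with all), from 0 to 217 for YEATS2 (78 with all) and from 0 to 1 between the depletions (0 with all). With all libraries it was 1114, 434 and 3 by DESeq2, of which 667 of 1114 and 279 of 434 were higher, 1542, 553 and 117 with no filter on low counts, 388 for YEATS2 and 1 between the depletions by limma-voom, 132 for YEATS2 with the GC and length correction, and 0 for ZZZ3 and 454 for YEATS2 with only the groups compared. The cause of these differences was not tested.

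Replicate numbers were fitted as a block although nothing says that they pair libraries: deviations of same-numbered libraries correlated between -0.17 and 0.20. With the block, 42 genes were called for ZZZ3 and 32 for YEATS2, 0 of the other 7 genes among them, and *Dgat1* for YEATS2 was at -0.00078.

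Of 336 values of the other 7 genes under alternatives, 25 changed sign, none of them called. With the GC and length correction these were *Agpat1* (-0.18) and *Lpin3* (-0.045) for ZZZ3 and *Dgat1* (-0.16) for YEATS2. *Dgat1* for ZZZ3 was at 0.0092 with a mean of at least 1 CPM, at 0.0053 with no filter and at 0.011 with only the groups compared. *Dgat2* between the depletions was at -0.15 by limma-voom. Without 1 library, *Dgat1* ranged from -0.20 to 0.23 for ZZZ3, from -0.18 to 0.25 for YEATS2 and from -0.023 to 0.082 between the depletions. *Agpat1* ranged from -0.043 to 0.47 for ZZZ3 and from -0.36 to 0.090 for YEATS2. *Agpat2* ranged from -0.12 to 0.21 and *Dgat2* from -0.21 to 0.23 between the depletions. *Lpin2* ranged from -0.19 to 0.0089 for ZZZ3, from -0.15 to 0.049 for YEATS2 and from -0.0062 to 0.078 between the depletions.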

Other observations

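Genes next to *Lpin1* were examined after its values were seen. Within 1 megabase on either side on chromosome 12, 13 other genes were tested. For ZZZ3, YEATS2 and between the depletions, edgeR called 0 of them, beside 0.753%, 0.445% and 0% of all genes. At an unadjusted P under 0.05, 1 of the 13 passed for ZZZ3, 2 for YEATS2 and 1 between the depletions, beside 21.7%, 14.6% and 6.25% of all genes tested. Their median log2 FC was 0.15 for ZZZ3 and 0.08 for YEATS2, beside 0.01 and -0.01 over all genes.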
